A study of Mus musculus with 7 samples.

Results

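The expression of 10 milk protein genes was followed through the cells of 7 mouse mammary tumors. They were Csn1s1, Csn1s2a, Csn2, Csn3, Lalba, Wap, Glycam1, Wfdc18, Btn1a1 and Xdh, 10 of the 33710 genes in the matrices, chosen by symbol. All 10 are listed in 4 of the 7 matrices. Csn2 is not listed in those of replicates 1 and 8 and Glycam1 not in that of replicate 4, and a gene not listed was counted as 0 UMIs. These matrices do list other genes with 0 UMIs, 515, 679 and 669 in replicates 1, 8 and 4. An unlisted gene may therefore not be a measured 0. All 7 mice were controls of genotype MMTV-PyMT; HK2 f/f. They carried the polyoma middle T oncogene under the mouse mammary tumor virus promoter, which is active in mammary epithelium, and a floxed hexokinase 2 gene. On the C57BL/6 background of the study, they had no inducible Cre, so HK2 stayed intact, although the labels' treatment text describes the Cre-mediated deletion for the whole study. Tamoxifen was given to the controls as well, by the study's account, after a tumor could be felt. The labels give the time as 3 months after a palpable tumor had formed and give no age. The mice are numbered as replicates 1 to 5, 7 and 8. Titles of replicates 1 to 4 end in CB and those of the others begin with WT, a difference that the sources used here do not explain. Mice with HK2 deletion were not analysed here, so every comparison below is between cells of the same mice.

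Milk protein genes are markers of the alveolar epithelial cell, the cell that makes milk. Prolactin, acting through its receptor and the transcription factor STAT5 together with glucocorticoids, switches them on in late pregnancy and lactation. Caseins form the micelles of milk, the whey proteins stay in solution, and butyrophilin and xanthine dehydrogenase coat the fat globules that leave the cell.

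Drop-seq gives each captured mRNA a unique molecular identifier (UMI) read next to the 3′ end, so a level counts molecules and does not scale with transcript length. Of 37000 barcodes, 15047 had 200 to 6000 genes and were kept as cells, 1133 to 4780 per mouse. The cells of a mouse held 962677 to 4471473 UMIs, and the median cell of a mouse held 527 to 694. Only 5 cell barcodes occurred in more than 1 library. Clusters were made from the other genes of the same cells, with the 10 milk protein genes left out, and named from fixed markers. Tumor cells numbered 6117 (clusters 0, 1 and 8), immune cells 4569, hormone-sensing luminal cells 1714, fibroblasts 1032, myoepithelial cells 265 and endothelial cells 143. The remaining 2 clusters stayed outside these classes, an unnamed cluster of 743 cells and a cluster of 464 cells led by hemoglobin genes. The 21950 barcodes under 200 genes served as a reference for free RNA, although they can also hold cells with few genes.

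PYMT, the oncogene, was itself a naming marker of the tumor clusters, so its level describes the classes and does not check their names. Its level, in UMIs per 1000000 UMIs of the class (CPM), was 830 at the lowest, 1560 at the median and 4045 at the highest of the 7 tumor samples. It was 106 to 981 CPM in hormone-sensing cells, 54.5 to 407 CPM in immune cells, 11.4 to 543 CPM in fibroblasts and 181 to 3384 CPM in myoepithelial cells, the last value in replicate 8, where tumor cells had 4045 CPM. Relative to the low-gene barcodes the tumor level was 0.879 to 5.57 times as high, and above them in 6 mice.

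Milk protein mRNA made up a large share of what tumor cells transcribed. The 10 genes together took 2.64% to 6.14% of all tumor UMIs, with a median of 4.06% over the 7 mice. In hormone-sensing cells the share was 0.221% to 1.02%, in immune cells 0.0849% to 0.716% and in low-gene barcodes 0.380% to 2.49%. Myoepithelial cells, with 0.566% to 3.55% and a median of 1.28% over 5 mice, overlapped the range of the tumor cells. Most of it came from Csn3 and Wfdc18, and the remaining members differed widely between mice.

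Csn3, kappa-casein, the casein that keeps micelles in suspension, was the most abundant member. Its gene lies on the plus strand at chr5:87925579-87932665 (GRCm38, GENCODE M21) and shares no exon with another annotated gene. In tumor cells its level was 13544 CPM at the lowest (replicate 8), 20383 CPM at the median and 37821 CPM at the highest (replicate 7). The mean was 22619 ± 8026 CPM (SD, n = 7). Hormone-sensing cells had 2828 ± 1531 CPM, immune cells 1910 ± 1501 CPM and fibroblasts 1072 ± 1222 CPM (SD, n = 7 each), while endothelial cells had 1674 ± 839 CPM (SD, n = 3). Immune cells without a UMI of PYMT, Epcam, Krt8 or Krt18 had a mean of 588 CPM. The ranges of the 4 classes overlapped, and all lay below the tumor cells of the same mouse in every mouse that had both. Myoepithelial cells came next to tumor cells, with 14004 ± 8470 CPM (SD, n = 5).

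Wfdc18, a small secreted protein with the whey acidic protein fold, was nearly as abundant. Its gene lies at chr11:83709015-83711348 on the plus strand. Tumor cells had 12313 CPM at the lowest (replicate 8), 16597 CPM at the median and 23868 CPM at the highest (replicate 4), a mean of 17500 ± 4175 CPM (SD, n = 7). All other classes were far lower. Means were 2420 ± 1607 CPM in hormone-sensing cells and 1470 ± 777 CPM in immune cells (SD, n = 7), and 2339 ± 2642 CPM in myoepithelial cells (SD, n = 5). In the immune cells without such epithelial UMIs the mean was 464 CPM. Tumor cells were higher in every mouse with both classes.

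Lalba, alpha-lactalbumin, which turns a galactosyltransferase into lactose synthase, was about an order of magnitude below Csn3. It lies at chr15:98480400-98482721 on the minus strand. In tumor cells its level ran from 437 CPM (replicate 8) through a median of 1472 CPM to 2522 CPM (replicate 1). Hormone-sensing cells had 67.3 ± 52.9 CPM and immune cells 99.2 ± 156 CPM (SD, n = 7 each), with a mean of 23.6 CPM in those without epithelial UMIs. The tumor level was 9.20 to 187 times that of hormone-sensing cells of the same mouse.

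**Figure D1:**
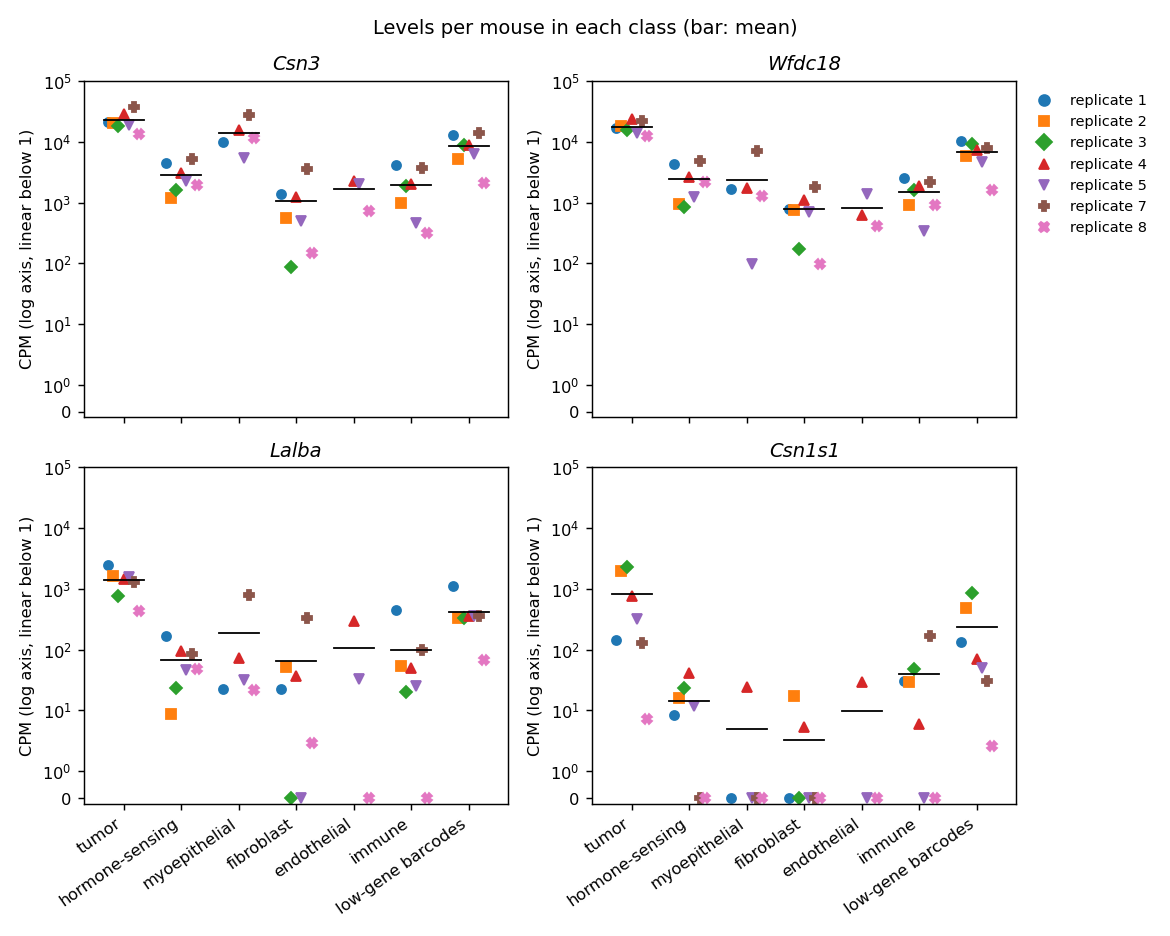
Levels of Csn3, Wfdc18, Lalba and Csn1s1 (CPM, log axis that is linear below 1) per mouse in each class and in barcodes under 200 genes, with bars at the mean over mice. Tumor cells are highest for all 4 genes at the mean, low-gene barcodes lie between tumor and most other classes, and myoepithelial cells are near tumor cells for Csn3 only.

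Tumor cells were then compared with each class over mice. UMIs were summed per mouse and class and compared in edgeR by quasi-likelihood, each mouse forming a block, and p-values were adjusted by Benjamini-Hochberg over all genes tested. Against hormone-sensing cells 6 members passed the filter on low counts and all 6 were called higher in tumor cells, where 15.9% of all genes tested were. Log2 fold changes were 5.45 ± 0.29 for Csn1s1, 4.68 ± 0.27 for Lalba, 3.21 ± 0.19 for Csn3 and 3.21 ± 0.24 for Wfdc18 (SE, n = 7). Btn1a1 and Xdh, the globule coat genes, were higher by 3.03 ± 0.32 and 3.04 ± 0.29 (SE, n = 7). The adjusted p by edgeR was at most 2.66e-11 for Lalba, Csn3 and Wfdc18, and at most 1.62e-08 in all 6. Hormone-sensing sums held 0 to 62 UMIs of Csn1s1, 0 to 23 of Btn1a1 and 0 to 10 of Xdh. These 3 members thus passed the filter through the tumor cells, where they are high. Their calls and the count of 6 are a description.

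Against immune cells the same 6 members passed the filter and all were called higher, where 25.5% of all genes tested were higher and 23.7% lower. Log2 fold changes were 4.25 ± 0.34 for Lalba, 4.25 ± 0.76 for Csn1s1, 3.78 ± 0.35 for Csn3, 3.57 ± 0.29 for Wfdc18, 3.27 ± 0.43 for Btn1a1 and 1.85 ± 0.25 for Xdh (SE, n = 7). Immune sums held 0 to 7 UMIs of Btn1a1 and 2 to 16 of Xdh, which again passed the filter through the tumor cells. Csn1s1 was above 0 in 5 of 7 immune sums and passed mainly in the same way. The calls of Btn1a1, Xdh and Csn1s1 and the count of 6 are therefore a description. Csn1s1 had the largest adjusted p of the 6, 0.000122 by the same edgeR test. It was higher in 6 of 7 mice, since immune cells of replicate 7 had 168 CPM and tumor cells 128 CPM. In the WT title series alone the difference was 1.49 and did not pass, with an adjusted p of 0.192 by edgeR.

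Against endothelial cells 3 members were tested and all 3 were called higher (11.4% of all genes tested), in 3 mice. These were Csn3, Lalba and Wfdc18, at log2 fold changes of 3.64 ± 0.22, 3.42 ± 0.44 and 4.40 ± 0.27 (SE, n = 3). Lalba was above 0 in 2 of 3 endothelial sums and passed the filter through the tumor cells, so its call and the count of 3 are a description. Against fibroblasts 3 of 4 members tested were called higher (26.4% of all genes tested), namely Csn3, Lalba and Wfdc18, at 4.80 ± 0.36, 4.57 ± 0.46 and 4.64 ± 0.33 (SE, n = 7). Only 5 of 7 fibroblast sums held a Lalba UMI, so Lalba passed the filter through the tumor cells and its call is a description. The fourth member tested was Xdh, xanthine dehydrogenase, at chr17:73883895-73950196 on the minus strand, an enzyme of purine breakdown that many tissues make.

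Xdh did not differ detectably between tumor cells and fibroblasts. It was at 16.5 to 106 CPM in tumor cells and at 29.0 to 149 CPM in fibroblasts, and was higher in tumor cells in 3 of 7 mice. The log2 difference was -0.27 ± 0.30 (SE, n = 7), with an adjusted p of 0.476 by edgeR. Its sign turned with the processing, to 0.038 without the filter on low counts.

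Csn1s2a, Csn2, Glycam1 and Wap were too rare for the filter in most comparisons, and the former 3 were also the members that differed most between mice. In 6 of 7 mice Csn1s2a stayed at 0.972 to 7.16 CPM of tumor UMIs, and in replicate 2 it reached 2333 CPM. Csn1s2a encodes an alpha-s2-type casein. Csn2, beta-casein, counted 0 UMIs in tumor cells of replicates 1 and 8, 2.92 to 54.5 CPM in replicates 3, 4, 5 and 7, and 3881 CPM in replicate 2. Csn2 is not listed in the matrices of replicates 1 and 8. If these 0 counts are measured values, they allow up to 1.75 CPM in replicate 1 and up to 21.5 CPM in replicate 8, counting error only. Glycam1, a mucin-like protein of the globule surface and of whey, had no tumor UMI in replicates 1, 4 and 8, 1.19 to 88.5 CPM in replicates 3, 5 and 7, and 2622 CPM in replicate 2. For all 3 genes replicate 2 stood apart from every other mouse.

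The means of these genes therefore rest on 1 mouse. Over all 7 mice the tumor means were 571 CPM for Csn2, 388 CPM for Glycam1 and 337 CPM for Csn1s2a, and without replicate 2 they were 19.4, 15.9 and 3.70 CPM. Wap, whey acidic protein, was more even. It had no tumor UMI in replicate 8 and 63.4 to 465.9 CPM in the other 6 mice, again with the highest value in replicate 2.

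Csn1s1, alpha-s1-casein, followed another order of mice. Replicate 3 had the highest level, 2291 CPM, ahead of replicate 2 with 1997 CPM and replicate 4 with 776 CPM. Replicates 5, 1 and 7 had 321, 144 and 128 CPM, and replicate 8 had 1 UMI, or 7.16 CPM. Btn1a1, butyrophilin, was at 13 to 101 CPM in tumor cells of all 7 mice.

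**Figure D2:**
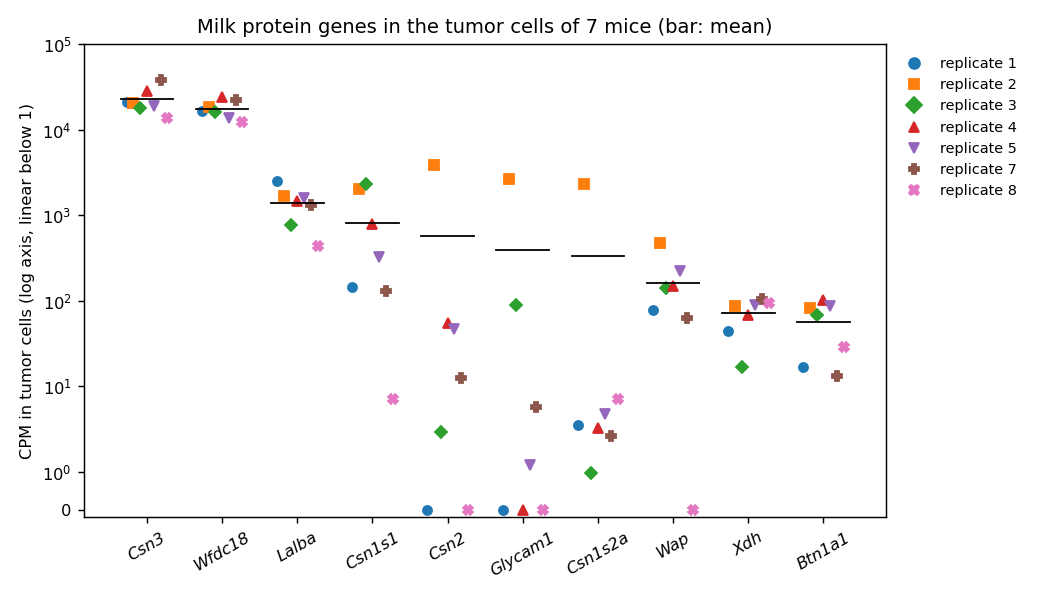
Level of each milk protein gene in the tumor cells of each mouse (CPM, log axis that is linear below 1), with bars at the mean of 7 mice. Csn3 runs from 13544 to 37821 CPM and Wfdc18 from 12313 to 23868 CPM between mice. Csn2, Glycam1 and Csn1s2a stand at 2333 to 3881 CPM in replicate 2 and at 0 to 88.5 CPM in all other mice.

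For the rare members the differences in log2(CPM + 1) were tested over mice by flipping their signs in every way (exact permutation, two-sided). With 7 mice this exact test cannot go below p = 0.0156. Against hormone-sensing cells, Wap was higher in tumor cells in 6 of 7 mice (exact p = 0.0312, not adjusted) and had no UMI in either class in replicate 8. As the difference of replicate 8 is 0, this value is the lowest that the exact test could give for Wap. The hormone-sensing sums of replicates 3, 7 and 8 held 0 Wap UMIs, which allows up to 17.6 to 71.2 CPM, and tumor cells were above the hormone-sensing value or that limit in 6 of 7 mice. For the other 3 genes most hormone-sensing sums held 0 UMIs, 5 of 7 for Csn1s2a and Csn2 and 6 of 7 for Glycam1, and a 0 there allows up to 1.997 to 71.2 CPM. Tumor cells were above the hormone-sensing value, or above the limit where that value was 0, in 2 of 7 mice for Csn1s2a, 3 of 7 for Csn2 and 2 of 7 for Glycam1. In the remaining mice the depth did not show a direction, and no p is given for these 3 genes. In replicate 2 the hormone-sensing cells had 26.4 CPM of Csn2 against 3881 CPM in tumor cells.

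The 4 casein members lie in 1 locus on chromosome 5, within 266458 bases together with Csn1s2b, the remaining casein gene. Csn1s1 is at chr5:87666208-87682578 (plus strand), Csn2 at chr5:87692624-87699630 (minus strand) and Csn1s2a at chr5:87774567-87788797 (plus strand). Glycam1 is elsewhere, at chr15:103562759-103565081, and Wap at chr11:6635482-6638637, both on the minus strand. Btn1a1 is at chr13:23456992-23465901, also on the minus strand. None of the 10 shares an exon with another gene of the annotation. Csn2 and Csn3, which have Csn1s2a and Csn1s2b between them, had tumor levels of 3881 and 20383 CPM in replicate 2 and of 0 and 21212 CPM in replicate 1. Csn2 is not listed in the matrix of replicate 1, so its 0 there may not be a measured value.

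Promoters were read from a RefSeq table (GRCm38.p6) that held 7 of the 10 members, with Csn3, Btn1a1 and Xdh not among them. Each runs 5′ to 3′ from 250 bases before to 50 after the annotated start. They were searched for the core of the STAT5 motif, TTCNNNGAA, which reads the same on both strands. It occurred in 8.3% of all 32851 promoters and in 4 of the 7 members, Csn1s1, Csn1s2a, Csn2 and Glycam1. It was not in the windows of Lalba, Wap and Wfdc18. In Csn1s1, Csn2 and Glycam1 the match began 100, 93 and 145 bases before the RefSeq start, and in Csn1s2a 20 bases after it. The RefSeq start equals the GENCODE start for Csn1s1 and Glycam1, lies 117 bases upstream of it for Csn1s2a and 205 bases downstream of it for Csn2. Counted from the GENCODE starts, the match of Csn1s2a therefore lies before the gene and that of Csn2 within it. A match of these letters is a description of the window, not a measured site. The promoters of 5 genes that were high in the same cells of replicate 2 (described below) are shown, 4 with a match and Wap without one, and that of Wfdc18 as a widely expressed member without one. Capitals mark the match. They lie at chr5:87665958-87666257 (Csn1s1, plus), chr5:87774200-87774499 (Csn1s2a, plus), chr5:87699376-87699675 (Csn2, minus), chr15:103565032-103565331 (Glycam1, minus), chr11:6638600-6638899 (Wap, minus) and chr11:83708754-83709053 (Wfdc18, plus).
Csn1s1: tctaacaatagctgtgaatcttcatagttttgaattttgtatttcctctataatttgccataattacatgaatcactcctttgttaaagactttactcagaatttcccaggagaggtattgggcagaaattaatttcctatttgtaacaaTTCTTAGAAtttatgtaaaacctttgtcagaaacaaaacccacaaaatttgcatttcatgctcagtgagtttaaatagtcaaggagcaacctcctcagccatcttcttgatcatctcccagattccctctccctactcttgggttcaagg
Csn1s2a: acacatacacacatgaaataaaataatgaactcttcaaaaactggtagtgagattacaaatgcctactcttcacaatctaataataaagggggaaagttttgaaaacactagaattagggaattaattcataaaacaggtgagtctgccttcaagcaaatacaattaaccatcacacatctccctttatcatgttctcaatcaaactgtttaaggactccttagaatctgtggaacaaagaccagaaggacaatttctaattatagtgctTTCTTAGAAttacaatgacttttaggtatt
Csn2: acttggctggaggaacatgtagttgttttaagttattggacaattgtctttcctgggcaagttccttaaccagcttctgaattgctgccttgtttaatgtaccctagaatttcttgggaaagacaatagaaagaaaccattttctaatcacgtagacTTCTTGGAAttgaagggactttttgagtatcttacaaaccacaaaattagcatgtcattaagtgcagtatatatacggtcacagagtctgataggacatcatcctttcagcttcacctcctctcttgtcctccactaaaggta
Glycam1: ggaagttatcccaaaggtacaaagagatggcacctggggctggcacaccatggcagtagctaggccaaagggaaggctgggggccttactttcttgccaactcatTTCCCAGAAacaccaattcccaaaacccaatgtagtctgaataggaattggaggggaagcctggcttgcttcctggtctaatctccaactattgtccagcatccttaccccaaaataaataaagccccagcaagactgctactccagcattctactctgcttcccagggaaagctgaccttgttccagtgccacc
Wap: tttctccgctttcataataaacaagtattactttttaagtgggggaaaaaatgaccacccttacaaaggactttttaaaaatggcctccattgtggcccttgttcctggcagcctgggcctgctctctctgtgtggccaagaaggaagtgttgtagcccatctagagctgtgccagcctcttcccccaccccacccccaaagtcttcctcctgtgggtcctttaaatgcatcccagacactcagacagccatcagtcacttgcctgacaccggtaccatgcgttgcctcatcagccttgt
Wfdc18: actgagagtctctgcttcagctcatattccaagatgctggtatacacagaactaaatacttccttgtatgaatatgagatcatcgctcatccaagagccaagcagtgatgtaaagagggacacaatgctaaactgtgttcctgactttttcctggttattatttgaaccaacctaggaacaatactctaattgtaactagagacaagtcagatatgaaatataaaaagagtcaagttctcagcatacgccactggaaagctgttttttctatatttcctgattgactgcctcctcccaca

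The high level of replicate 2 came from a few cells. Of its 671 tumor cells, 27 held at least 5 Csn2 UMIs, a limit chosen after the values were seen, and these cells held 98.5% of the tumor Csn2 UMIs. They also held 98.2% of the Glycam1 UMIs, 94.8% of Csn1s2a, 92.1% of Wap and 84.8% of Csn1s1, but only 33.8% of Lalba. The richest cell had 752 Csn2 UMIs. Because the cells were picked by Csn2 in 1 mouse, these values are a description and were not tested.

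Within these 27 cells Csn2 was at 45789 CPM, Csn3 at 33129 CPM, Glycam1 at 30824 CPM, Wfdc18 at 26579 CPM, Csn1s2a at 26488 CPM and Csn1s1 at 20271 CPM. In the other 644 tumor cells of the mouse Csn3 was at 19222 CPM and Wfdc18 at 17389 CPM, whereas Csn2 was at 62.2 CPM. So Csn2, Glycam1 and Csn1s2a differed by 737, 587 and 200 times between the 2 sets of cells, Wap by 128 times, Csn1s1 by 61.1 times, Lalba by 5.61 times, and Csn3 and Wfdc18 by 1.72 and 1.53 times. Xdh was at 91.0 and 87.0 CPM. PYMT was lower in the Csn2-rich cells, at 485 CPM (95% Poisson interval 332 to 685, counting error only) against 1492 CPM (1404 to 1584), and 48.1% of them had a PYMT UMI against 57.0% of the others. The median cell had 965 UMIs in the rich set and 639 in the other.

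Tumor cells past the Csn2 limit were rarer in other mice, and Csn1s2a was not high there. At least 5 Csn2 UMIs were found in 3 tumor cells of replicate 4, 2 of replicate 5 and 1 of replicate 7, and these held 96.5%, 97.4% and 91.7% of the tumor Csn2 UMIs of their mice. All tumor cells of replicates 4, 5 and 7 held 85, 39 and 24 UMIs of Csn2, but only 5, 4 and 5 of Csn1s2a. Glycam1 had 1 and 11 tumor UMIs in replicates 5 and 7 and is not listed in replicate 4. The 27 cells of replicate 2 fell into all 3 tumor clusters, 13 in cluster 0, 10 in cluster 1 and 4 in cluster 8. Outside the tumor class, 10 low-gene barcodes of replicate 2 passed the limit and held 61.5% of the Csn2 UMIs of all low-gene barcodes of the mouse, so the reference was not free RNA alone for this gene. The limit was also passed by 1 immune cell of replicate 2, with 8 of the 40 Csn2 UMIs of its class, and by 1 hormone-sensing cell of replicate 4, with all 12 of its class.

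**Figure D3:**
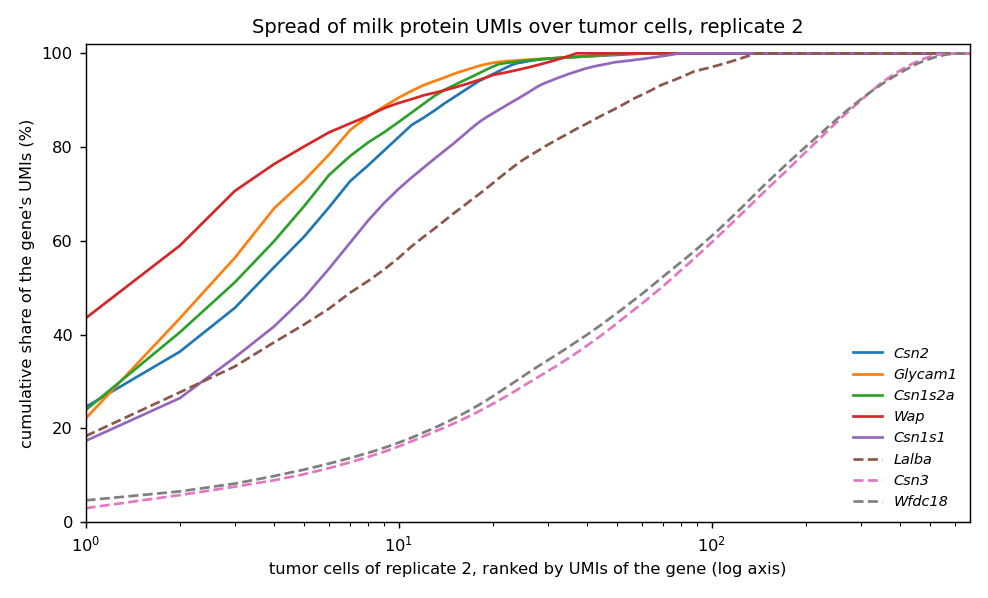
Cumulative share (%) of each gene's UMIs over the 671 tumor cells of replicate 2, ranked for each gene from the richest cell down (log axis). Csn2, Glycam1, Csn1s2a, Wap and Csn1s1 (solid lines) reach most of their UMIs within a small number of cells, Lalba follows, and Csn3 and Wfdc18 are spread over most of the cells.

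Csn1s1 showed both patterns. In replicate 3, the mouse with its highest level, 299 of 799 tumor cells (37.4%) held a Csn1s1 UMI and the 10 richest cells held 32.0% of its UMIs, while Csn2 had only 3 UMIs in the same cells. In replicate 4, 71 of 1548 tumor cells (4.59%) held one and the 10 richest held 83.2%, with 495 UMIs in a single cell. In replicate 2, 79 of 671 cells (11.8%) held one.

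For Csn3 and Wfdc18 expression was general among tumor cells. After each cell was thinned to 500 UMIs, which left 3892 of 6117 tumor and 1958 of 4569 immune cells, 90.9% of tumor cells had a Csn3 UMI and 91.9% a Wfdc18 UMI. In immune cells, which should lack both, the shares were 25.03% and 21.4%. Without thinning they were 90.6% and 91.6% in tumor cells (median depth 683 UMIs) and 29.4% and 24.9% in immune cells (median depth 453). Lalba was found in 23.3% of thinned tumor cells and in 2.09% of thinned immune cells. For Csn2 and Glycam1 the share in the median mouse was 0.222% and 0% of thinned tumor cells and 0% of thinned immune cells for both, and the highest mouse had 7.71% and 6.02% of tumor and 2.94% and 2.67% of immune cells.

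The level outside tumor cells was compared with the low-gene barcodes of the same mouse. Csn3 was below them in hormone-sensing cells, immune cells and fibroblasts in 7 of 7 mice, and Lalba likewise. Wfdc18 was below them in immune cells and fibroblasts in 7 of 7 mice and in hormone-sensing cells in 6 of 7. Levels of these 3 members in the classes named were therefore not read as expression, and where these UMIs came from was not tested. Tumor cells themselves were above the low-gene barcodes, with 6 of 7 members tested called higher where 16.6% of all genes tested were higher and 18.3% lower. Log2 fold changes were 2.05 ± 0.19 for Wap, 1.67 ± 0.27 for Csn1s1, 1.60 ± 0.28 for Btn1a1, 1.59 ± 0.15 for Lalba, 1.27 ± 0.17 for Csn3 and 1.23 ± 0.17 for Wfdc18 (SE, n = 7). Xdh was at 0.14 ± 0.19 (SE, n = 7; adjusted p = 0.603 by edgeR). The tumor level of Wap was 4.94 times the low-gene level at the median over mice. A Btn1a1 UMI was found in 6 of 7 low-gene sums. Both genes thus passed the filter mainly through the tumor cells, so their calls and the count of 6 are a description.

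Myoepithelial cells, the contractile cells around the alveoli, were nearest to tumor cells for Csn3. Their Csn3 level was 0.742 to 5.53 times that of the low-gene barcodes, higher in 3 of 5 mice and lower in replicates 1 and 5. Of 3 members tested, Wfdc18 and Lalba were called higher in tumor cells (10.2% of all genes tested), by 3.37 ± 0.46 and 3.48 ± 0.52 on the log2 scale (SE, n = 5). Csn3 was not, at 0.78 ± 0.30 (SE, n = 5; adjusted p = 0.0648 by edgeR). The tumor level of Lalba was 1.62 to 111 times the myoepithelial level, with a median of 20.2. Lalba thus passed the filter mainly through the tumor cells, and its call is a description. Csn3 was lower in myoepithelial than in tumor cells in 5 of 5 mice, at 9762, 15701, 5495, 27673 and 11390 CPM in replicates 1, 4, 5, 7 and 8, where tumor cells had 21212, 28294, 19065, 37821 and 13544 CPM. Without replicate 8 the difference was 1.22 with an adjusted p of 1.23e-05 by edgeR.

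The 2 abundant members were therefore set against each other within each class. In tumor cells there were 1.10 to 1.73 Csn3 UMIs per Wfdc18 UMI, with a median of 1.19 over 7 mice. Medians were 1.16 in hormone-sensing cells, 1.15 in immune cells, 1.11 in fibroblasts and 1.26 in low-gene barcodes. In endothelial cells the ratio was 1.45 to 3.76 with a median of 1.77, above the tumor cells and the low-gene barcodes of the same mouse in 3 of 3 mice, by 0.81 ± 0.81 on the log2 scale against tumor cells (SD, n = 3). The exact sign-flip p was 0.25, the lowest possible with 3 mice. In myoepithelial cells the ratio was 5.90, 9.11, 57.0, 4 and 8.75 in replicates 1, 4, 5, 7 and 8, above the tumor cells and the low-gene barcodes of the same mouse in 5 of 5 mice. The ratio of replicate 5 rests on 3 Wfdc18 UMIs.

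This comparison was added after the values were seen. The mean difference of myoepithelial from tumor cells was 2.94 ± 1.53 on the log2 scale (SD, n = 5), with an exact sign-flip p of 0.0625. A lower p cannot be had with 5 mice, and adjusted over 6 classes by Benjamini-Hochberg it was 0.375. A Csn3 UMI was found in 73.2% of the 265 myoepithelial cells and a Wfdc18 UMI in 33.2%, while 53.2% held Acta2, the smooth muscle actin of contractile cells, and 24.2% held PYMT. The PYMT level of this class was 181 to 1188 CPM in 4 mice and 3384 CPM in replicate 8, against 4045 CPM in the tumor cells of that mouse. Among myoepithelial cells with an Acta2 UMI and no PYMT UMI, the ratio was 7.96, 12.1 and 21.0 in replicates 1, 4 and 5, the mice with at least 10 such cells, and the last value rests on 1 Wfdc18 UMI. The Csn3 level of these cells was 6098, 15925 and 1397 CPM, where the low-gene barcodes of the same mice had 13159, 8886 and 6331 CPM, so it was above them in replicate 4 alone.

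**Figure D4:**
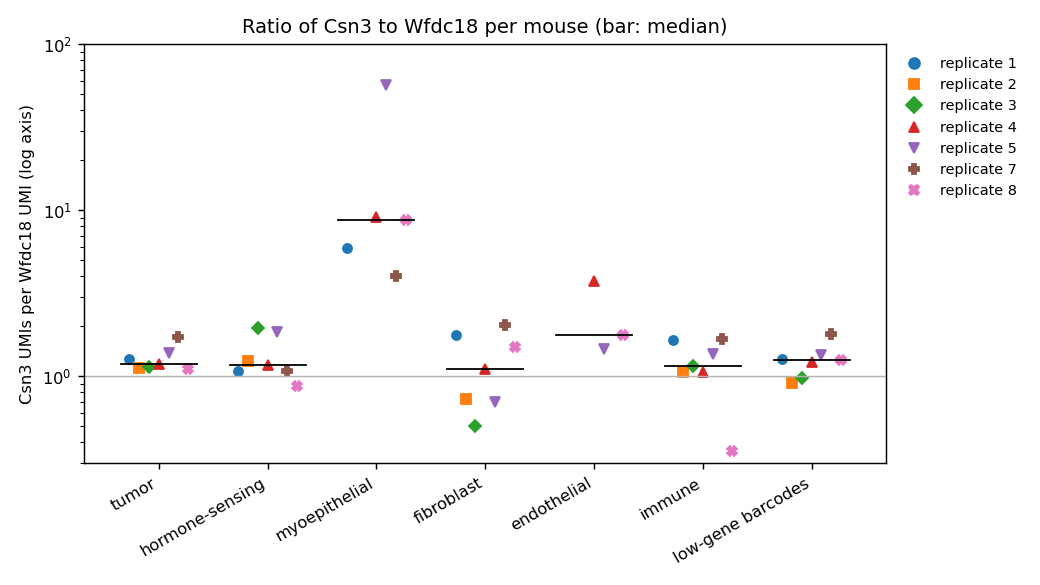
Csn3 UMIs per Wfdc18 UMI (log axis) per mouse in each class, with bars at the median and a grey line at 1. Myoepithelial cells lie at 4 to 57.0 in 5 mice, and tumor cells at 1.10 to 1.73 in 7 mice.

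Lalba, which lies outside the casein locus, was then used to divide the tumor cells. PYMT-positive tumor cells were thinned to 500 UMIs, and 685 of 2620 held a Lalba UMI. Replicate 8 had 7 such cells and did not enter the comparison of 6 mice. With Lalba itself left out, 22 genes were called higher and 17 lower in the Lalba-positive cells, or 1.39% and 1.07% of the 1583 tested.

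Wap and Csn3 rose with Lalba. Wap was at 75.9, 1040, 201, 452, 270.3 and 156 CPM in Lalba-positive cells of replicates 1, 2, 3, 4, 5 and 7, and at 31.6, 36.4, 169, 61.8, 108 and 30.6 CPM in Lalba-negative cells. It was higher in 6 of 6 mice, by 2.32 ± 0.32 on the log2 scale (SE, n = 6; adjusted p = 2.03e-06 by edgeR). The direction in single mice rests on few UMIs. Positive and negative cells held 7 and 5 Wap UMIs in replicate 1, 6 and 17 in replicate 3 and 9 and 13 in replicate 5. They held 31 and 4 in replicate 2, 31 and 14 in replicate 4 and 13 and 7 in replicate 7. Csn3 was at 28847 to 52829 CPM in positive and 15759 to 40044 CPM in negative cells. It was also higher in 6 of 6 mice, by 0.67 ± 0.08 (SE, n = 6; adjusted p = 1.71e-07 by edgeR). These calls rest on the pairing within mice, and without the block the adjusted p was 0.282 for Wap and 0.9999 for Csn3.

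Wfdc18 and Csn1s1 did not pass the test. Wfdc18 differed by 0.18 ± 0.08 (SE, n = 6; adjusted p = 0.349 by edgeR). Csn1s1 differed by 1.08 ± 0.34 (SE, n = 6; adjusted p = 0.0764 by edgeR) and moved in opposite directions in 2 mice with high levels. In replicate 2 it was at 3824 CPM in Lalba-positive and 400.0 CPM in Lalba-negative cells, and in replicate 3 at 1072 and 2826 CPM. Without replicate 3 the difference was 1.99 with an adjusted p of 1.98e-08, and without replicate 1 it was 1.15 with an adjusted p of 0.0291, both by edgeR.

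**Figure D5:**
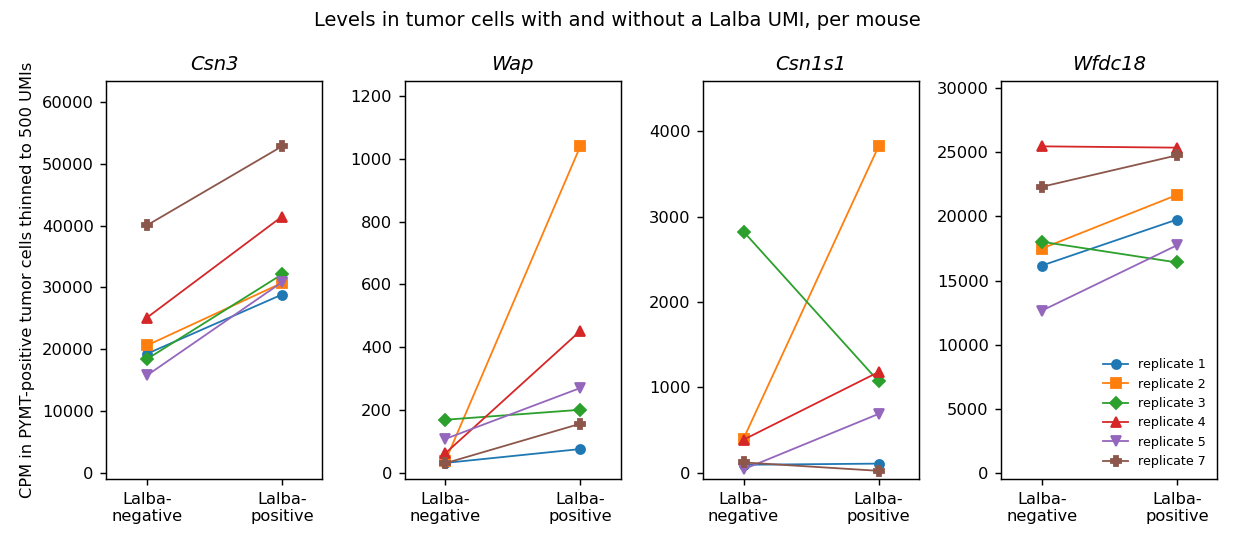
Levels of Csn3, Wap, Csn1s1 and Wfdc18 (CPM, linear axes) in PYMT-positive tumor cells without and with a Lalba UMI, thinned to 500 UMIs, with a line for each of 6 mice. Csn3 and Wap rise in 6 of 6 mice, Wap from few UMIs (6 and 17 in positive and negative cells of replicate 3). Csn1s1 falls from 2826 to 1072 CPM in replicate 3.

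Among other genes that rose in every mouse were Lrg1 (1.15 ± 0.13), Dkkl1 (1.26 ± 0.26), the Notch target Hey1 (0.99 ± 0.20), the folate receptor Folr1 (0.96 ± 0.18), Gde1 (0.91 ± 0.24), Xbp1, a transcription factor of the secretory pathway (0.85 ± 0.12), 4931406C07Rik (0.84 ± 0.15), Gadd45g (0.69 ± 0.19) and the chloride channel Ano1 (0.68 ± 0.18), in log2 units with SE and n = 6. Among genes that fell in every mouse, the largest falls were in Luc7l3 (-0.99 ± 0.19), S100a6 (-0.84 ± 0.14), the protease inhibitor Cst3 (-0.84 ± 0.17), the galectin Lgals3 (-0.80 ± 0.17) and the annexin Anxa2 (-0.52 ± 0.14). The adjusted p was at most 0.0360 by edgeR for these 14 genes.

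Across single cells the members were weakly related. Over PYMT-positive tumor cells thinned to 500 UMIs, Pearson's r on log2(UMI + 1) between Csn3 and Lalba was 0.228 to 0.337 in the 7 mice, with a median of 0.244. Between Csn3 and Wfdc18 the median was 0.235 (-0.0602 to 0.484), and between Lalba and Wap it was 0.153 (6 mice). These cells share library, depth and free RNA, and the values are given as a description. In replicate 2 the values among Csn1s1, Csn1s2a, Csn2 and Glycam1 were 0.802 to 0.904. The genes nearest to Csn3 by median r were Lcn2 (0.381), Ly6e (0.305) and Clca3a2 (0.243), and those nearest to Wfdc18 were Ltf (0.287), Tmsb4x (0.187) and Ly6e (0.186). For Lalba they were Lrg1 (0.194), Xbp1 (0.184) and Trf (0.126), and for Csn1s1 S100a8 (0.164), Ltf (0.109) and Prrc2c (0.0946), each over 7 mice and among 1563 genes. For Csn1s1 the sign changed between mice, with S100a8 at -0.153 to 0.391, Ltf at -0.102 to 0.296 and Prrc2c at -0.0463 to 0.174. It also changed for Wfdc18 with Tmsb4x (-0.224 to 0.265), and the other pairs named here were positive in every mouse.

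The tumor clusters differed in the members in opposite ways. Cluster 0 was led by Saa1, Ltf, Spp1, Slpi and Cp, genes of secreted defense proteins, and cluster 1 by Thrsp, Emid1, 4931406C07Rik, Kcnn4 and Lalba. Csn3 was lower in cluster 1 than in cluster 0 in 6 of 7 mice (means 18557 and 25545 CPM), and Lalba was higher in 6 of 7 mice (1676 and 1184 CPM). Cluster 8, led by interferon-induced genes such as Ifit3, had 2147 CPM of Lalba against 1332 CPM in cluster 0 of the same 6 mice, higher in 5 of 6. Csn1s1 was lower there in 6 of 6 mice (335 and 917 CPM). The clusters were made from other genes of the same cells, so no test was made.

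Other genes of lactation followed the members in part. From a list of 12 regulators of milk gene transcription, 11 were tested against hormone-sensing cells, and 6 were called higher and 4 lower in tumor cells, with a median log2 fold change of 0.80 against 0.02 over all genes. In the same comparison 15.9% of all genes were called higher and 15.4% lower, a share that holds for the other lists against hormone-sensing cells as well. Prlr, the prolactin receptor, fell by 4.32 ± 0.16 (SE, n = 7). Cebpb, Elf5 and Id2, transcription regulators of the alveolar lineage, rose by 2.55 ± 0.18, 2.33 ± 0.22 and 2.09 ± 0.16 (SE, n = 7). Also called higher were Nr3c1 (1.90 ± 0.24), Nfib (1.69 ± 0.15) and Socs2 (0.80 ± 0.27). Also called lower were Jak2 (-1.93 ± 0.28), Cish (-1.04 ± 0.18) and Stat5a (-0.75 ± 0.28), with SE and n = 7. Elf5 and Prlr are also markers that named these classes and are not independent of them. Elf5 was at 0 to 124 CPM in hormone-sensing, 0 to 35.5 CPM in immune and 136 to 240 CPM in tumor cells. It passed the filter mainly through the tumor cells, and its fold changes against both classes are a description.

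Against immune cells the regulators gave 6 higher and 4 lower of 11, with a median of 0.80 against 0.02 over all genes. Elf5 rose by 3.84 ± 0.24, Nfib by 2.93 ± 0.25, Gata3 by 2.21 ± 0.18 and Socs2 by 1.63 ± 0.20 (SE, n = 7), whereas Cish, like Socs2 a target of STAT5, fell by 1.54 ± 0.24 (SE, n = 7). Of all genes tested against immune cells 25.5% were called higher and 23.7% lower, also for the lists that follow. Id2 was also called lower than in immune cells (-0.89 ± 0.25, SE, n = 7). Against low-gene barcodes 2 of 9 regulators were higher and 3 lower, where 16.6% and 18.3% of all genes were, as for the later lists. The 2 higher were Elf5 and Socs2. Cebpb (0.18 ± 0.15) and Id2 (-0.40 ± 0.17) were not called there (SE, n = 7).

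Genes of lactose synthesis and milk ions were divided. The list includes Folr1, a folate receptor that serves neither function. Of 7 tested against hormone-sensing cells 2 were higher (15.9% of all genes), Folr1 by 2.64 ± 0.20 and the UDP-glucose enzyme Ugp2 by 0.56 ± 0.18, and 3 were lower (15.4% of all genes), among them Pgm1 (-1.91 ± 0.31) and Pgm2 (-0.64 ± 0.24), which interconvert glucose phosphates (SE, n = 7). Against immune cells 3 of 6 were higher, including Folr1 by 3.42 ± 0.20, the glucose transporter Slc2a1 by 1.08 ± 0.21 and Pgm2 by 0.88 ± 0.31. The only gene called lower there was B4galt1, the galactosyltransferase that Lalba modifies, at -0.66 ± 0.16 (SE, n = 7). Against low-gene barcodes 2 of 5 were higher and 1 lower. Folr1 was at 0 to 60.6 CPM in hormone-sensing, 7.59 to 35.5 CPM in immune and 143 to 276 CPM in tumor cells. It passed the filter mainly through the tumor cells. Pgm1 had a mean of 14.2 CPM in tumor and 45.9 CPM in hormone-sensing cells, and passed mainly through the latter. The fold changes of Folr1 and Pgm1 are therefore a description.

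Among 17 genes of milk fat synthesis and the globule, 5 of 11 tested were higher and 1 lower against hormone-sensing cells. Thrsp, a regulator of fatty acid synthesis, rose by 4.04 ± 0.24, the globule mucin Muc1 by 2.25 ± 0.20 and the lipid droplet coat gene Plin2 by 2.25 ± 0.21, whereas Dgat2, a triglyceride synthase, fell by 2.69 ± 0.32 (SE, n = 7). Against immune cells 6 of 13 were higher and 4 lower, with Thrsp at 3.74 ± 0.26, Muc1 at 2.88 ± 0.24, the fatty acid carrier Cd36 at -6.72 ± 0.42 and lipoprotein lipase, Lpl, at -4.42 ± 0.30 (SE, n = 7). Macrophages also make Cd36 and Lpl. Tumor cells had only 0 to 3.80 CPM of Cd36 and 0 to 17.7 CPM of Lpl. Both genes passed the filter mainly through the immune cells, and their fold changes are a description. Thrsp was at 0 to 57.9 CPM in hormone-sensing, 0 to 35.5 CPM in immune and 136 to 341 CPM in tumor cells. It passed mainly through the tumor cells. Dgat2 was at 3.80 to 21.5 CPM in tumor and 0 to 82.7 CPM in hormone-sensing cells, and passed mainly through the latter. The fold changes of Thrsp and Dgat2 are a description as well. Against low-gene barcodes 6 of 10 were higher and 2 lower.

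Other secreted milk proteins were mostly higher in tumor cells than in hormone-sensing and immune cells. Of 7 tested against hormone-sensing cells, 6 were higher and 1 lower, with a median of 2.97 against 0.02 over all genes. Spp1, osteopontin, rose by 3.20 ± 0.24, the transferrin gene Trf by 3.16 ± 0.19 and Lcn2, an iron-scavenging lipocalin, by 2.98 ± 0.21, whereas Wfdc2 fell by 4.35 ± 0.19 (SE, n = 7). Against immune cells 6 of 8 were higher and none lower, including Lcn2 at 3.95 ± 0.34, lactoferrin, Ltf, at 3.84 ± 0.34, the antibody transporter Pigr at 3.28 ± 0.21 and Trf at 2.78 ± 0.24 (SE, n = 7). Pigr was at 0 to 35.5 CPM in immune and 97.2 to 254 CPM in tumor cells. It passed the filter mainly through the tumor cells, so its fold change is a description. Against low-gene barcodes 6 of 8 were higher and 1 lower, with Lcn2 at 1.38 ± 0.17 (SE, n = 7). Among tumor cells Folr1, Ltf and Trf also rose with Lalba, the latter 2 by 0.65 ± 0.14 and 0.44 ± 0.10, each in 5 of 6 mice. Slpi, Spp1 and the globule protein gene Mfge8 fell by 0.71 ± 0.18, 0.63 ± 0.14 and 0.51 ± 0.14 (SE, n = 6), in 5, 4 and 6 of 6 mice. These were all the list genes called there, where 1.39% of all genes were called higher and 1.07% lower by edgeR.

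Counts for the remaining classes rest on fewer genes tested. Against fibroblasts the regulators, the lactose and ion genes, the fat genes and the other secreted proteins had 5, 2, 5 and 7 genes higher and 1, 2, 2 and 1 lower, of 9, 4, 8 and 8 tested, where 26.4% of all genes were called higher and 22.4% lower. Against endothelial cells 4, 1, 4 and 6 were higher and 0, 0, 1 and 0 lower, of 6, 1, 6 and 6, where 11.4% of all genes were called higher and 17.1% lower. Against myoepithelial cells 1, 1, 2 and 3 were higher and 0, 0, 2 and 1 lower, of 7, 2, 6 and 7, where 10.2% of all genes were called higher and 12.9% lower.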

How the data were processed

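Drop-seq libraries were made from the tumors of 7 control mice, 1 library per mouse. The authors deposited 1 matrix per tumor, with a raw UMI count for each gene in each barcode. According to the paper, reads were aligned to mm10 with the PyMT sequence added, whereas the submitters' processing notes list STAR, FastQC and human builds. The rows are mouse symbols. The counting program and the annotation are not given in the sources used here. Positions are those of GENCODE M21 and promoters those of RefSeq, which may differ from the models counted.

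Barcodes with 200 to 6000 genes were kept, with mitochondrial genes left out. Cells were clustered in Seurat 5.3.0 with the settings of the paper and the defaults it used (variable genes with a mean of 0.1 to 8 and a dispersion of at least 1, UMIs regressed out, 30 neighbors, resolution 0.6), but with 20 in place of 9 principal components, since 9 gave no myoepithelial or endothelial cluster. Leaving out the members took 587 variable genes to 581. Clusters were named by the marker list of highest mean log2 fold over the median cluster. No doublet caller was run beyond the limit of 6000 genes. UMIs were summed per mouse and class for sums of at least 10 cells. They were compared with edgeR 4.0.16 (R 4.3.3, TMM, its filter on low counts) with the mouse as block, since both sums come from the same mouse, and a threshold of 0.05. Levels are CPM, and 0 counts are given an upper limit of 3 UMIs. For the list genes, the 4 of largest change among those called are named against hormone-sensing and immune cells. In the Lalba comparison the 10 largest rises and 5 largest falls that went the same way in every mouse are named, and, for each member found in at least 5% of PYMT-positive tumor cells, the 3 genes of highest median correlation. The members and lists were chosen with earlier results of these data known.

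In simulated counts with known changes of 1 and 2 log2 units, edgeR called 43 of 56 and 57 of 57 changed genes against hormone-sensing cells, 35 of 52 and 54 of 54 against immune cells, where it also called 1 of 7710 unchanged genes, and 25 of 33 and 30 of 30 in the Lalba comparison, where it also called 3 of 1640 unchanged genes. Alternatives were DESeq2 1.42.0, no TMM factors, no filter, no block, other clusterings, a limit of 500 genes, PYMT-positive tumor cells, immune cells without epithelial UMIs, other thinning depths, a split by Wap or Csn2, either title series by itself, and omission of each mouse. Leaving mice out of the tumor levels, the Csn3 to Wfdc18 ratio, the Csn2-rich limit and the Acta2-positive cells were added after the data were seen.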

Additional observations from a re-analysis of the deposited data

Results flagged for a closer look

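A mouse that lay far from the others by Dixon's test was found in 12 of 27 groups of mice tested. Chance flags about 1 group in 20 where groups are independent. These groups share mice and cells, so the count of 12 is a description and is not measured against that rate. Of the 12 groups, 7 were of replicate 2. In tumor cells it stood apart with 3880.6 CPM of Csn2, 2622.1 CPM of Glycam1 and 2333.4 CPM of Csn1s2a, and in low-gene barcodes with 1054.0 CPM of Csn2, 636.8 CPM of Glycam1, 485.8 CPM of Csn1s2a and 85.1 CPM of Wap. The 27 tumor cells and 10 low-gene barcodes with at least 5 Csn2 UMIs held most of the Csn2 UMIs of these 2 groups.

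Replicate 1 stood apart in low-gene barcodes with 1132.9 CPM of Lalba, and it was also the mouse with the highest Lalba level in tumor cells. In myoepithelial cells, replicate 7 stood apart with 806.4 CPM of Lalba and 6918.2 CPM of Wfdc18, in a sum over 11 cells in which 54.5% held a PYMT UMI. Replicate 4 stood apart there with 24.3 CPM of Csn1s1 and replicate 8 with 65.1 CPM of Btn1a1, each from 3 UMIs.

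A signal was also seen outside the classes compared. The cluster led by hemoglobin genes had 21324.1 ± 9139 CPM of Csn3 and 17004 ± 2921 CPM of Wfdc18 (SD, n = 4 mice), above the low-gene barcodes of the same mouse in 4 of 4 mice. Its PYMT level was 2472 ± 1302 CPM (SD, n = 4), and Plet1, Trf and Cldn7 were among its leading genes.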

How the results depend on the processing

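The number of members called higher in tumor cells kept its size under most settings. Without the filter on low counts it rose to 10 against immune cells, 10 against hormone-sensing cells, 9 against fibroblasts, 6 against endothelial cells, 8 against myoepithelial cells and 6 in the Lalba comparison. These added calls include rare members with 0 UMIs in most sums of the other class (in hormone-sensing cells 5 of 7 for Csn1s2a and Csn2 and 6 of 7 for Glycam1), so they are not read as a direction. The CB title series alone gave 5 against fibroblasts and 6 against myoepithelial cells. Leaving out mice 1 at a time gave 5 to 7 against immune cells, 4 to 7 against hormone-sensing cells, 3 to 5 against fibroblasts, 3 to 6 against endothelial cells, 2 to 5 against myoepithelial cells, 5 to 6 against low-gene barcodes and 2 to 3 in the Lalba comparison, and the highest values against fibroblasts (5), endothelial cells (6) and myoepithelial cells (5) came without replicate 8. Without the replicate block the Lalba comparison gave 0 members and 0 genes in all by edgeR (2 members at an unadjusted p under 0.05), the WT title series alone also gave 0 by edgeR, with 2 mice (2 at an unadjusted p under 0.05), and thinning to 300 UMIs gave 1. Without the block the count against low-gene barcodes was 5 in place of 6, and it was the same against the other 5 classes. Immune cells without epithelial UMIs had 464 CPM of Wfdc18 in place of 1470 CPM.

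The direction of Xdh against fibroblasts turned without the filter (0.038) and in the WT series alone (0.053), against low-gene barcodes it turned in the CB series alone (-0.039), and Wfdc18 in the Lalba comparison turned without the filter (-0.090). Csn3 against myoepithelial cells passed the threshold with DESeq2 (0.81), no TMM factors (0.84), no filter (1.46) and the CB series alone (1.13). Over its 14 alternatives the adjusted p ran from 2.28e-21 to 0.380. The split by Wap gave 2.73 for Csn1s1 and, no longer past the threshold, 0.30 for Csn3. Csn1s1 against immune cells in the WT series alone (1.49, adjusted p = 0.192 by edgeR) and against low-gene barcodes without the replicate block (1.66, adjusted p = 0.219) did not pass. The cause of these shifts was not tested.

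Counts over all genes moved more. Genes higher and lower in tumor cells were 1867 and 1737 against immune cells (1002 to 3146 and 946 to 2763 over the alternatives), 1174 and 1138 against hormone-sensing cells (253 to 1877 and 254 to 1329), 1124 and 953 against fibroblasts (560 to 2942 and 814 to 1912), 195 and 292 against endothelial cells (119 to 627 and 190 to 350), 238 and 303 against myoepithelial cells (64 to 1117 and 141 to 590) and 1026 and 1132 against low-gene barcodes (294 to 2129 and 564 to 2140). Without TMM factors the higher and lower calls were 2509 and 1380 against immune cells, 1524 and 832 against fibroblasts and 1646 and 672 against low-gene barcodes, as the median log2 change of all genes went from 0.02 to 0.21, from 0.15 to 0.32 and from 0.03 to 0.27, and the members called higher there were 6, 3 and 6 as before. In the Lalba comparison DESeq2 called 9 and 2. The 22 and 17 genes of this comparison ran from 0 to 45 and from 0 to 96. Fits with endothelial cells in the CB series, with endothelial and myoepithelial cells at 9 principal components, and with a split by Csn2 could not be made for want of mice or clusters. The median of 362 to 467 genes per cell limits the detection of rare members, and the endothelial and myoepithelial sums rest on 143 and 265 cells.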

Other observations

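The 27 Csn2-rich tumor cells of replicate 2 and the other 644 tumor cells of that mouse were also set side by side for lactation genes that were not used to pick them. These are values of 1 mouse with exact Poisson intervals (95%, counting error only), and no test was made. Of the genes with a UMI, 4 of 12 regulators, 5 of 8 lactose and ion genes, 11 of 16 fat genes and 6 of 11 other secreted proteins had the higher level in the Csn2-rich cells, as did 24.7% of all 17904 genes with a UMI in these tumor cells. The intervals lay apart upward for 1, 1, 5 and 4 of them and downward for 2, 0, 0 and 3, and over all of these genes they did so for 0.793% and 1.52%. The Csn2-rich cells held 65955 UMIs and the others 723867, so a rare gene often has no UMI in the rich cells and counts as lower. The shares over all genes are not matched for abundance, and whether the lists differ from genes of like abundance was not tested. Fabp3, the fatty acid binding protein of milk fat globules, had 16 UMIs, or 243 CPM (139 to 394), in the Csn2-rich cells and none in the others, where 3 UMIs would be 4.14 CPM. Cel, the bile salt-stimulated lipase of milk, was at 152 CPM (72.7 to 279) and 2.76 CPM (0.335 to 9.98). Csn1s2b, the remaining casein, was at 182 CPM (94.0 to 318) and 11.1 CPM (4.77 to 21.8). Thrsp was at 1076 CPM (841 to 1358) and 119 CPM (95.03 to 147), Plin2 at 531 CPM (369.6 to 738) and 169.9 CPM (141 to 203), and Scd1, a fatty acid desaturase, at 758 CPM (563 to 999) and 286 CPM (248 to 328). Lpl, lipoprotein lipase, was at 75.8 CPM (24.6 to 177) and 12.4 CPM (5.69 to 23.6). The intervals of other fat genes overlapped, with Cd36 at 30.3 CPM (3.67 to 109.5) and 1.38 CPM (0.0350 to 7.70), from 2 UMIs and 1, Muc1 at 91.0 CPM (33.4 to 198) and 169.9 CPM (141 to 203), and Fasn at 30.3 CPM (3.67 to 109.5) and 45.6 CPM (31.4 to 64.0). Btn1a1 was at 303 CPM (185 to 468) and 60.8 CPM (44.2 to 81.6).

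Elf5 was at 394 CPM (258 to 578) in the Csn2-rich cells and at 202 CPM (170 to 237) in the others. Nfib was at 425 CPM (282 to 614) and 841 CPM (776 to 911), Id2 at 182 CPM (94.0 to 318) and 372 CPM (329 to 419), Socs2 at 45.5 CPM (9.38 to 133) and 127 CPM (102.5 to 156), and Stat5a at 0 UMIs, where 3 UMIs would be 45.5 CPM, and 22.1 CPM (12.6 to 35.9). Genes of secreted defense proteins went both ways. Spp1 was at 3851 CPM (3392 to 4355) and 1687 CPM (1593 to 1784), Ltf at 1865 CPM (1550 to 2225) and 2040 CPM (1938 to 2147), and Lcn2 at 5079 CPM (4550 to 5653) and 9857 CPM (9629 to 10088).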
